A study of Mus musculus with 12 samples.

Results

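The Hox genes of cultured mouse neural progenitor cells (NPCs) were examined on 12 one-colour arrays, by every probe whose gene symbol was Hoxa, Hoxb, Hoxc or Hoxd followed by a number. This rule took 44 of the 55681 probes and left out the antisense transcripts of the clusters. The 44 probes covered 39 genes, which are all the Hox genes of the RefSeq table used for naming, and 5 of these genes had 2 probes. The NPCs were differentiated in culture from mouse embryonic stem cells that carry a blasticidin resistance gene in Oct4, and were grown with epidermal growth factor and basic fibroblast growth factor. Per the study's methods they came from the line NSEB5-2C or from N31, a line remade from it that also carries doxycycline-dependent reprogramming transgenes, and the labels do not say which. In the overexpression experiment, retroviruses brought in Mkl1, Srf or, as the control, the fluorescent protein EGFP. In the knockdown experiment, retroviral hairpins were directed at EGFP (shEGFP, the control) or at Actb, the β-actin gene, with a different sequence in shActb_1 and shActb_2. Each of the 6 groups had 2 arrays, and the study calls its knockdown duplicates technical. The p-values here therefore measure only the spread between arrays, and with so few arrays they are imprecise.

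Hox genes encode homeodomain transcription factors that give cells their position along the head-to-tail axis. They lie in 4 clusters, A to D, and genes of the same number in different clusters form 1 of 13 paralog groups. In the embryo, low-numbered genes come on first and reach forward into the hindbrain, high-numbered genes mark the lower spinal cord and tail, and the forebrain and midbrain lack Hox expression. Retinoic acid turns on the low-numbered end of a cluster, Polycomb complexes keep the unused part silent, and the Pbx, Meis and Pknox (TALE) proteins bind DNA together with Hox proteins. Srf (serum response factor) binds the CArG box, and Mkl1 is its actin-regulated cofactor.

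Levels below are log2 processed signals from which the 75th percentile of the array was subtracted, so 0 is a signal at that percentile. A gene is called on in a group when a probe of it was well above background, the scanner software's own flag, on both arrays. Levels of different probes are not comparable, because probes bind with different strength, so the genes are compared by whether they were on and by their change between groups. Between 59.3% and 72.5% of all probes were well above background on an array. The lowest and the highest share were those of the shActb_2 arrays, where 24 and 30 Hox genes were detected in replicates 2 and 1. The targeted genes check the labels. Actb was lower by 0.53 and 0.65 on the log2 scale with shActb_1 and shActb_2 (limma, adjusted p = 0.00128 and 0.000197). Mkl1 (Mrtfa in current naming) was 0.20 and 0.17 higher at its 2 probes on the Mkl1 arrays, short of the threshold (adjusted p = 0.12 and 0.312). The Srf probes went against their label, with log2 differences of -2.46 and -1.40 from EGFP (adjusted p = 2.54e-06 and 0.000266), so these samples are called the arrays labelled Srf and no direction of Srf activity is taken from them. Per the study's methods the vectors carried only the coding part of each gene. Whether the probes lie in that part, and so measure the transgene, was not tested, nor was an exchange of samples. The same Srf probes were higher than in EGFP on the Mkl1 arrays (0.71 and 1.18, adjusted p = 0.000522 and 0.00121), and higher than in shEGFP with shActb_1 (0.90 and 0.60) and shActb_2 (0.97 and 0.75).

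Of the 39 Hox genes, 25 were on in EGFP and 23 in shEGFP. They spread over all clusters and over anterior, central and posterior positions. Cluster A had 10 of 11 genes on in each control. Cluster B had 4 of 10 genes on in EGFP and 6 in shEGFP, cluster C 5 and 3 of 9, and cluster D 6 and 4 of 9. By position, 8 of the 12 anterior genes (groups 1 to 4) were on in each control. Of the 11 central genes (groups 5 to 8), 6 were on in EGFP and 7 in shEGFP, and of the 16 posterior genes (groups 9 to 13) 11 and 8. Paralog group 4 was complete in both controls, with 4 of 4 genes, and so was group 7 with 2 of 2. Group 9 lacked only Hoxb9 in EGFP and was complete in shEGFP. Group 8 had only Hoxd8 on.

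**Figure D1:**
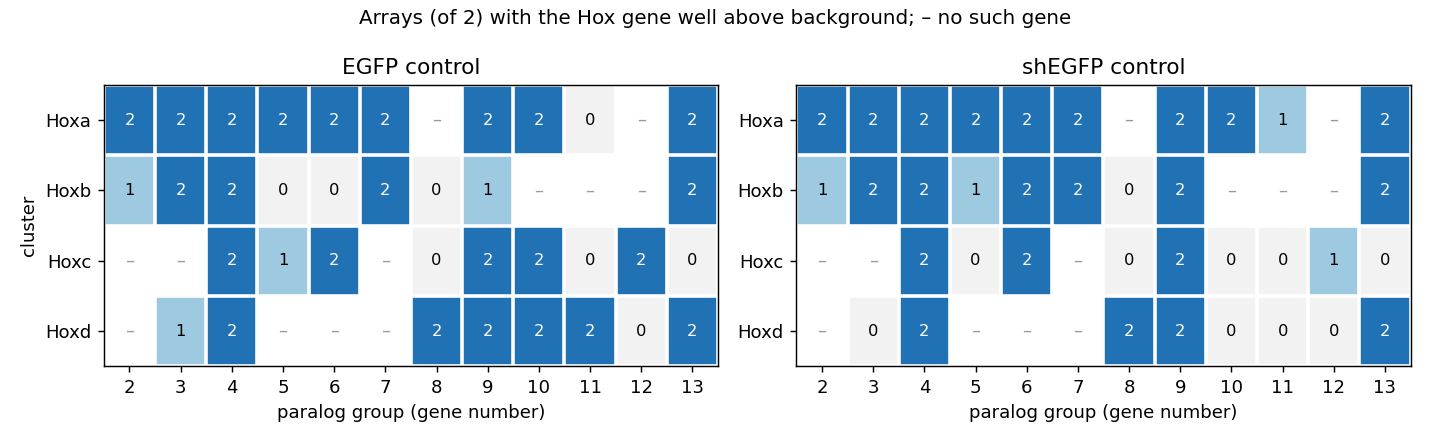
Number of arrays, 0 to 2, on which each Hox gene was well above background in the EGFP and shEGFP controls, with clusters in rows and paralog groups 2 to 13 in columns. The Hoxa row is filled except for Hoxa11, and the right-hand columns of the Hoxc and Hoxd rows hold more filled cells in EGFP than in shEGFP.

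All 12 arrays detected the same 21 genes. Among them were Hoxa2 to Hoxa7, Hoxa9, Hoxa10, Hoxa13, Hoxb3, Hoxb4, Hoxb7, Hoxb13, Hoxc4, Hoxc6, Hoxc9, Hoxd4, Hoxd8, Hoxd9 and Hoxd13. At the other end, 5 genes were detected on no array, namely Hoxb1, Hoxc8, Hoxc11, Hoxd1 and Hoxd12, with levels between -8.19 and -5.24. A gene that is not well above background has a level too low for these probes to measure, which does not show that it was silent. The other 13 genes were detected on some arrays. Hoxc10, Hoxc12, Hoxd10 and Hoxd11 were on in EGFP and not in shEGFP, and Hoxb6 and Hoxb9 were on in shEGFP and not in EGFP. Neither control had Hoxa11, Hoxb2, Hoxb5, Hoxb8, Hoxc5, Hoxc13 or Hoxd3 on, although some arrays detected them. With only 1 array required, 29 genes counted as on in EGFP and 27 in shEGFP.

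The anterior genes of cluster A changed little. Hoxa2, which patterns the front of the hindbrain and its neural crest, read -2.31 and -2.24 on the EGFP arrays, -2.35 and -2.49 with Mkl1, -2.06 and -2.23 on the arrays labelled Srf, -2.87 and -2.78 with shEGFP, -2.39 and -2.26 with shActb_1, and -2.48 and -2.42 with shActb_2. Its shEGFP arrays were the lowest of all 12. Hoxa3, a gene of thymus and parathyroid formation, read 1.42 and 1.23 on the EGFP arrays, 1.44 and 1.38 with Mkl1, 1.90 and 1.82 on the arrays labelled Srf, 0.98 and 0.87 with shEGFP, 1.30 and 1.45 with shActb_1, and 0.996 and 0.99 with shActb_2. Hoxa4 stood at -2.56 and -2.49 on the EGFP arrays, -1.95 and -1.91 with Mkl1, -2.03 and -2.10 on the arrays labelled Srf, -2.04 and -2.23 with shEGFP, -1.92 and -1.999 with shActb_1, and -2.03 and -2.11 with shActb_2. Hoxa3 was highest on the arrays labelled Srf, and Hoxa4 was lowest on the EGFP arrays.

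The central genes of cluster A came next. Hoxa5, a gene of the airway and of the neck-to-chest transition, stood at -1.89 and -1.51 on the EGFP arrays, -1.49 and -1.50 with Mkl1, -1.63 and -1.58 on the arrays labelled Srf, -2.09 and -1.92 with shEGFP, -1.87 and -1.70 with shActb_1, and -2.19 and -2.20 with shActb_2. Hoxa6 read -1.97 and -2.06 on the EGFP arrays, -2.10 and -2.46 with Mkl1, -2.29 and -2.26 on the arrays labelled Srf, -2.19 and -2.21 with shEGFP, -2.27 and -2.19 with shActb_1, and -0.96 and -2.56 with shActb_2. The Hoxa6 arrays of shActb_2 differed from each other by 1.59, the largest gap between duplicates of any Hox probe detected on both arrays of a group. Hoxa7 read 2.72 and 2.42 on the EGFP arrays, 2.28 and 2.16 with Mkl1, 2.54 and 2.56 on the arrays labelled Srf, 2.497 and 2.51 with shEGFP, 2.51 and 2.53 with shActb_1, and 2.59 and 2.53 with shActb_2. Its lowest levels were those of the Mkl1 arrays, and 1 EGFP array was the highest.

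Posterior genes of cluster A were on as well. Hoxa9, a gene of the trunk and of blood progenitors, had a pair of probes that did not move alike. The first Hoxa9 probe read -2.62 and -3.01 on the EGFP arrays, -2.85 and -3.03 with Mkl1, -2.97 and -3.12 on the arrays labelled Srf, -3.09 and -3.03 with shEGFP, -3.13 and -3.18 with shActb_1, and -2.86 and -2.85 with shActb_2. The second Hoxa9 probe read -3.91 and -3.61 on the EGFP arrays, -3.45 and -3.44 with Mkl1, -3.30 and -3.49 on the arrays labelled Srf, -3.56 and -3.66 with shEGFP, -3.999 and -3.71 with shActb_1, and -2.91 and -2.997 with shActb_2, with its highest levels in shActb_2. Hoxa10, a gene of the lower trunk and uterus, read -0.76 and -0.61 on the EGFP arrays, -0.60 and -0.57 with Mkl1, -1.01 and -0.93 on the arrays labelled Srf, -0.86 and -0.85 with shEGFP, -0.96 and -1.07 with shActb_1, and -0.43 and -0.25 with shActb_2. It too was highest in shActb_2, and lowest in shActb_1 and on the arrays labelled Srf. Hoxa13, needed for digits and the urogenital outlet, also had a pair of probes. One read -3.11 and -3.27 on the EGFP arrays, -4.001 and -4.04 with Mkl1, -4.05 and -4.25 on the arrays labelled Srf, -4.15 and -4.48 with shEGFP, -5.40 and -4.40 with shActb_1, and -3.89 and -5.16 with shActb_2, and was detected on only 1 array of each Actb hairpin. The other read -2.58 and -2.86 on the EGFP arrays, -3.06 and -3.05 with Mkl1, -2.41 and -2.40 on the arrays labelled Srf, -2.83 and -3.01 with shEGFP, -3.42 and -3.43 with shActb_1, and -2.98 and -3.17 with shActb_2. On the arrays labelled Srf the former lay below both EGFP arrays and the latter above them, so no direction is given for Hoxa13 there.

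In cluster B, the anterior Hoxb3 and Hoxb4 and the terminal Hoxb13 were on in all groups. The brighter Hoxb3 probe read -3.77 and -3.29 on the EGFP arrays, -3.57 and -3.21 with Mkl1, -3.17 and -3.19 on the arrays labelled Srf, -3.52 and -3.26 with shEGFP, -3.48 and -3.44 with shActb_1, and -3.25 and -3.45 with shActb_2. The arrays labelled Srf were the highest of all 12, with no call in any comparison. Hoxb4, known for the expansion of blood stem cells, read -0.06 and -0.03 on the EGFP arrays, 0.24 and 0.16 with Mkl1, 0.19 and 0.22 on the arrays labelled Srf, 0.07 and 0.13 with shEGFP, 0.03 and 0.18 with shActb_1, and 0.69 and 0.74 with shActb_2, and was highest in shActb_2. Hoxb13, a gene of the tail bud and prostate, read 1.26 and 0.99 on the EGFP arrays, 1.12 and 0.99 with Mkl1, 1.34 and 1.09 on the arrays labelled Srf, 1.14 and 1.18 with shEGFP, 0.83 and 0.82 with shActb_1, and 1.25 and 1.23 with shActb_2. The shActb_1 arrays of Hoxb13 were the lowest of all. The members from Hoxb6 to Hoxb9 varied far more and are described with the comparisons below.

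Cluster C had 5 genes on in EGFP. Hoxc6, a gene of motor neurons at forelimb level, read -3.97 and -4.62 on the EGFP arrays, -4.36 and -4.74 with Mkl1, -4.23 and -4.07 on the arrays labelled Srf, -3.86 and -4.18 with shEGFP, -4.29 and -3.74 with shActb_1, and -4.04 and -3.97 with shActb_2, with no call in any comparison. Hoxc12 read -4.02 and -3.95 on the EGFP arrays, -5.82 and -4.28 with Mkl1, -4.15 and -5.35 on the arrays labelled Srf, -4.45 and -5.78 with shEGFP, -4.57 and -4.82 with shActb_1, and -4.77 and -5.54 with shActb_2, and was detected on 8 of 12 arrays. Its duplicates differed by over 1 on the log2 scale in Mkl1, in shEGFP and between the arrays labelled Srf, so its order across groups is not known.

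In cluster D, the detected genes were Hoxd4, Hoxd8, Hoxd9, Hoxd13 and, in EGFP, Hoxd10 and Hoxd11. Hoxd4, a gene of the hindbrain and neck, read -0.72 and -0.52 on the EGFP arrays, -1.07 and -1.82 with Mkl1, 0.11 and -0.71 on the arrays labelled Srf, -1.98 and -0.99 with shEGFP, -1.28 and -1.31 with shActb_1, and -1.39 and -1.13 with shActb_2, and its duplicates were far apart in several groups. Hoxd8 read 0.83 and 1.04 on the EGFP arrays, 0.94 and 1.02 with Mkl1, 1.39 and 1.47 on the arrays labelled Srf, 0.87 and 0.96 with shEGFP, 0.88 and 0.92 with shActb_1, and 1.30 and 1.31 with shActb_2, higher on the arrays labelled Srf and in shActb_2 than on any other. Hoxd9 read -0.03 and 0.15 on the EGFP arrays, -0.08 and 0.06 with Mkl1, -0.40 and -0.25 on the arrays labelled Srf, 0.22 and 0.20 with shEGFP, -0.10 and 0.13 with shActb_1, and 0.16 and 0.16 with shActb_2, lowest on the arrays labelled Srf. Hoxd13, which shapes the digits, read -0.76 and -0.40 on the EGFP arrays, -0.43 and -0.24 with Mkl1, -0.69 and -0.53 on the arrays labelled Srf, 0.08 and 0.24 with shEGFP, 0.04 and 0.27 with shActb_1, and 0.12 and 0.26 with shActb_2. All 6 Hoxd13 arrays of the knockdown experiment lay above all 6 of the overexpression experiment. The brighter Hoxd11 probe read -4.55 and -4.69 on the EGFP arrays, -5.48 and -5.26 with Mkl1, -4.78 and -5.61 on the arrays labelled Srf, -5.53 and -5.91 with shEGFP, -6.34 and -5.12 with shActb_1, and -5.63 and -7.50 with shActb_2, and it was detected on both arrays in EGFP alone.

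**Figure D2:**
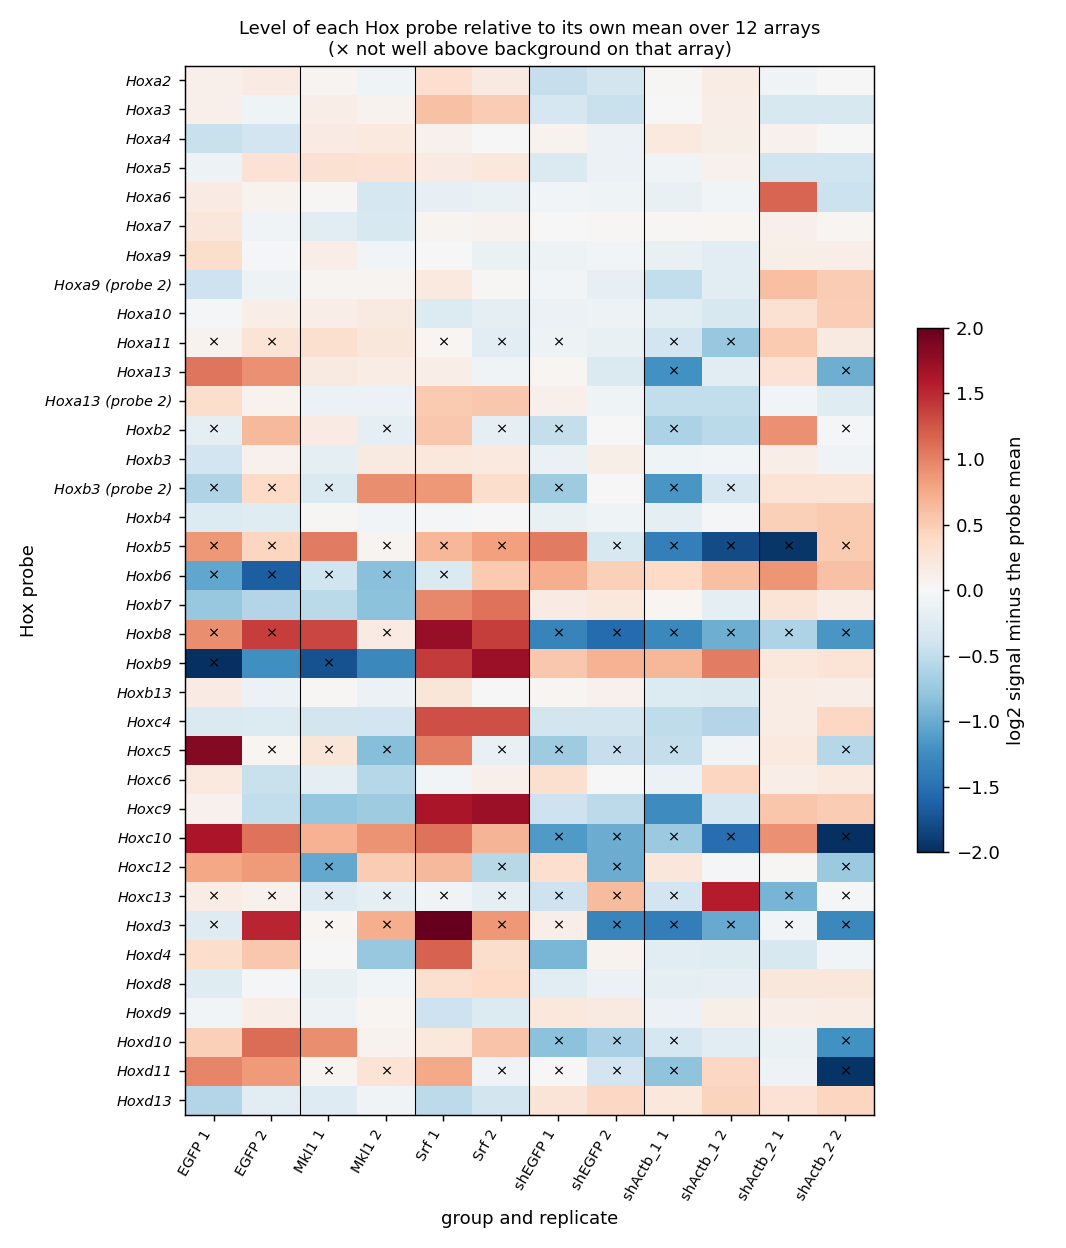
Level of each Hox probe of paralog groups 2 to 13 detected on at least 1 array, drawn as log2 signal minus the probe's own mean over the 12 arrays (colour) for each array in columns, with crosses where the probe was not well above background. Hoxb7, Hoxb9, Hoxc4 and Hoxc9 are red on the arrays labelled Srf, and Hoxb8 and (except on 1 array) Hoxc10 are blue at crossed cells on the knockdown arrays.

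The Srf comparison asked what the Srf transgene changes in NPCs. On the arrays labelled Srf, 4 Hox genes were higher than in EGFP by over 2-fold, Hoxb7 and Hoxb9 of cluster B and Hoxc4 and Hoxc9 of cluster C, and none was lower. Their levels on the arrays did not overlap, but with 2 arrays a group this adds nothing to the calls. Of the 44 Hox probes 30 could be tested. Over all 35552 probes tested, 5.54% were called in either direction, 3.29% as higher and 2.25% as lower. Among the 30 Hox probes, 25 were detected on all 4 arrays compared, 3 entered only through the arrays labelled Srf and 2 only through EGFP. The 25 hold 3 of the calls, those other than Hoxb9.

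Hoxb9, a thoracic gene of the spinal cord and ribs, stood at -5.81 and -4.79 on the EGFP arrays, -5.31 and -4.86 with Mkl1, -2.16 and -1.86 on the arrays labelled Srf, -3.02 and -2.87 with shEGFP, -2.91 and -2.54 with shActb_1, and -3.36 and -3.29 with shActb_2. It was detected on both arrays labelled Srf but on only 1 of the 2 EGFP arrays and 1 of the 2 Mkl1 arrays. The difference from EGFP was 3.29 on the log2 scale (SE 0.32, limma adjusted p = 0.000377). Because 1 EGFP array was not above background and the probe entered the test only through the arrays labelled Srf, the size of this difference is not exact and its p is no independent evidence. Hoxb7, its near neighbour in the cluster, read -3.62 and -3.44 on the EGFP arrays, -3.40 and -3.67 with Mkl1, -1.89 and -1.77 on the arrays labelled Srf, -2.69 and -2.65 with shEGFP, -2.82 and -3.05 with shActb_1, and -2.59 and -2.71 with shActb_2. The gap between the arrays labelled Srf and EGFP was 1.70 (SE 0.12, adjusted p = 0.000108), and the knockdown arrays lay between these groups.

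Hoxc4 stood at -3.49 and -3.46 on the EGFP arrays, -3.57 and -3.58 with Mkl1, -1.90 and -1.91 on the arrays labelled Srf, -3.56 and -3.57 with shEGFP, -3.71 and -3.77 with shActb_1, and -3.05 and -2.78 with shActb_2. It lies at the low-numbered end of cluster C, and the arrays labelled Srf exceeded EGFP by 1.57 (SE 0.09, adjusted p = 3.61e-05), with the smallest p of the Hox probes. Hoxc9, which sets the thoracic motor neuron columns of the spinal cord, read -3.66 and -4.24 on the EGFP arrays, -4.52 and -4.45 with Mkl1, -2.11 and -2.03 on the arrays labelled Srf, -4.16 and -4.27 with shEGFP, -5.001 and -4.09 with shActb_1, and -3.19 and -3.23 with shActb_2. Its difference was 1.88 (SE 0.29, adjusted p = 0.00293). All 4 genes were also higher on the arrays labelled Srf than with Mkl1, by 3.07 for Hoxb9, 2.42 for Hoxc9, 1.70 for Hoxb7 and 1.67 for Hoxc4 (SE 0.32, 0.29, 0.12 and 0.09; limma adjusted p = 0.000451, 0.000849, 8.87e-05 and 2.15e-05). Hoxb9 entered this test too only through the arrays labelled Srf, with 1 Mkl1 array not above background, so its size is not exact and its p is no independent evidence. These were the only Hox calls among 29 probes tested between those groups, where 5% of all probes were called. With the normexp background correction, which shrinks differences between dim probes, the differences from EGFP were 1.61 for Hoxb9, 1.09 for Hoxc9, 1.06 for Hoxb7 and 1.03 for Hoxc4, and all 4 remained called.

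**Figure D3:**
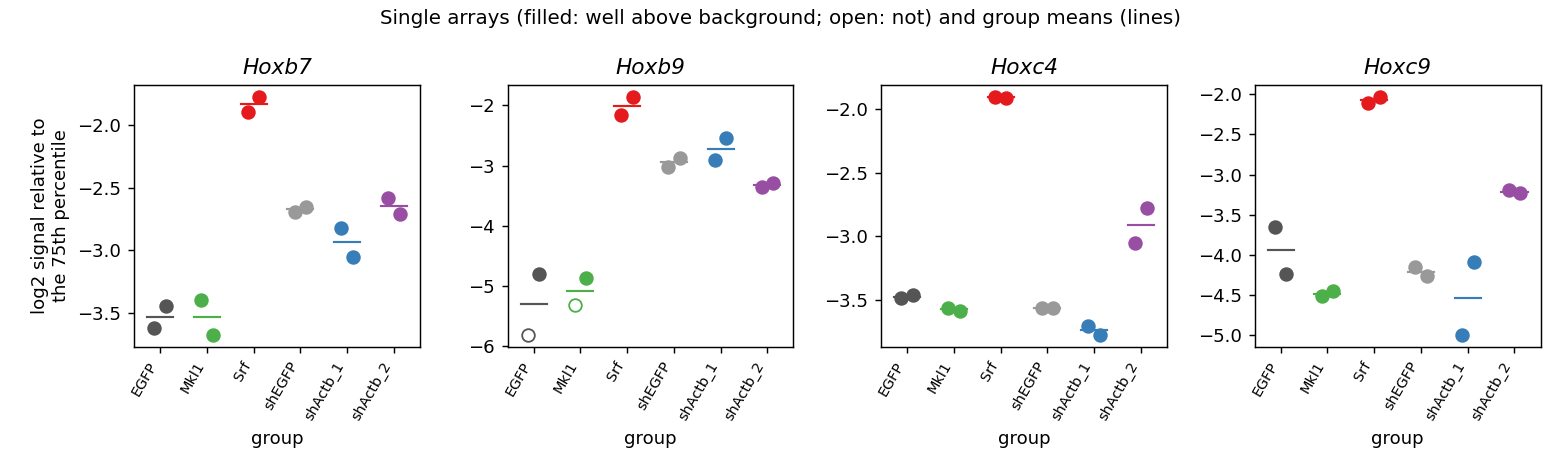
Log2 signal relative to the 75th percentile (vertical axis) of Hoxb7, Hoxb9, Hoxc4 and Hoxc9 on each of the 12 arrays by group, with lines at group means and open circles where the probe was not well above background. In each panel the 2 arrays labelled Srf are the highest, at -1.89 and -1.77 for Hoxb7 and at -2.16 and -1.86 for Hoxb9.

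Of the genes beside the 4 in their clusters, those tested did not pass the call, and others could not be tested. Hoxb8, which lies between Hoxb7 and Hoxb9, read -5.47 and -5.02 on the EGFP arrays, -5.06 and -6.23 with Mkl1, -4.65 and -5.02 on the arrays labelled Srf, -7.73 and -7.94 with shEGFP, -7.69 and -7.37 with shActb_1, and -7.02 and -7.57 with shActb_2. It was well above background on both arrays labelled Srf and on neither EGFP array, but the signals of these arrays overlapped and the difference missed the threshold (limma adjusted p = 0.464). Hoxb6 was detected on only 1 of the arrays labelled Srf and on neither EGFP array. It was not tested, and its difference of 1.46 is not exact. Hoxc5, next to Hoxc4, was detected on 1 array of each of these groups and Hoxc8, next to Hoxc9, on none. Neither was tested. Hoxb13 differed from EGFP by 0.09 and Hoxc6, between Hoxc4 and Hoxc9, by 0.14. Hoxc10, next to Hoxc9, differed by -0.48 (SE 0.95).

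By position, all 9 anterior Hox probes tested were higher on the arrays labelled Srf than in EGFP, with a median of 0.46, as were 5 of 7 central and 5 of 14 posterior ones, where 46% of all probes were higher. The second Hoxb3 probe, 1 of the 9, entered only through the arrays labelled Srf. Anterior probes were higher than the control in 5 of 8 with Mkl1, 6 of 8 with shActb_1 and 9 of 9 with shActb_2. With shActb_2 the other zones were mostly higher too, 22 of 27 Hox probes in all, where 48.1% of all probes were, and the second Hoxb3 probe entered only through shActb_2. The median over the 30 Hox probes was 0.20, against -0.04 over all probes, and it stayed above 0 with the other scalings and background correction tried (0.11 to 0.26). At an adjusted p under 0.05 with no fold required, 9 Hox probes were higher and 2 lower, where 12.9% and 12.5% of all probes were. The smaller increases included Hoxa3 (0.53), Hoxd8 (0.50), Hoxa4 (0.46) and Hoxb4 (0.25), and the decreases were Hoxd9 (-0.38) and Hoxa10 (-0.28).

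With Mkl1, no Hox probe of 28 tested was called by limma, where 2.78% of all probes were. At an unadjusted p under 0.05 there were 6, where 35.5% of all probes passed. At the adjusted p alone, Hoxa4 (0.59, SE 0.08) and Hoxb4 (0.25, SE 0.07) were higher and Hoxa7 (-0.34, SE 0.10) was lower, where 12.5% of all probes were higher and 8.34% lower. The only difference over 2-fold was Hoxc12 at -1.07 (SE 0.65), whose duplicates disagreed. The median of the 28 probes was -0.09, and 11 of them were higher than in EGFP. Quantile normalization gave a median of 0.00 with 14 of 28 higher, so no direction is given for them.

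The hairpins against Actb addressed what a loss of β-actin changes. With shActb_1, no Hox probe of 26 tested was called by limma, where 1.61% of all probes were. At an unadjusted p under 0.05 there were 5, where 22.7% of all probes passed. At the adjusted p alone, Hoxa2 (0.50, SE 0.09) and Hoxa3 (0.46, SE 0.09) were higher and the second Hoxa13 probe (-0.51, SE 0.11) was lower, where 5.29% of all probes were higher and 4.12% lower.

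With shActb_2, 1 of 27 Hox probes was called, where 6.31% of all probes were. This was Hoxc9, higher than in shEGFP by 1.003 (SE 0.28, limma adjusted p = 0.026), which is barely over 2-fold. Its arrays read -3.19 and -3.23 against -4.16 and -4.27 in shEGFP. The call was lost without shEGFP replicate 1 (adjusted p = 0.0898), shEGFP replicate 2 (0.107), shActb_2 replicate 1 (0.0849) or shActb_2 replicate 2 (0.105), with no filter on dim probes (0.0502), and with the normexp correction, where the difference was 0.55. Over the 13 alternatives the adjusted p ranged from 0.00303 to 0.107.

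At the adjusted p alone, 8 Hox probes were higher with shActb_2 and none was lower, where 21.7% of all probes were higher and 18.6% lower. Among these were Hoxc9, the second Hoxa9 probe (0.66), Hoxc4 (0.65), Hoxb4 (0.61), Hoxa10 (0.52), Hoxd8 (0.38) and Hoxa2 (0.38). All arrays of shActb_2 were on a slide of their own, so slide and hairpin cannot be told apart.

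The hairpins differed from each other at Hoxc9. It was 1.33 higher with shActb_2 than with shActb_1 (SE 0.28, adjusted p = 0.0112), the single Hox call of 27 where 5.03% of all probes were called. The shActb_1 arrays read -5.00 and -4.09, and without the former the difference was 0.88. At the adjusted p alone, 9 Hox probes were higher and 2 lower with shActb_2 than with shActb_1, among them Hoxc4 (0.83), Hoxa10 (0.67) and Hoxb4 (0.61), where 16.7% of all probes were higher and 15.4% lower. Of the 9, Hoxa11 entered only through shActb_2, since neither shActb_1 array detected it.

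**Figure D4:**
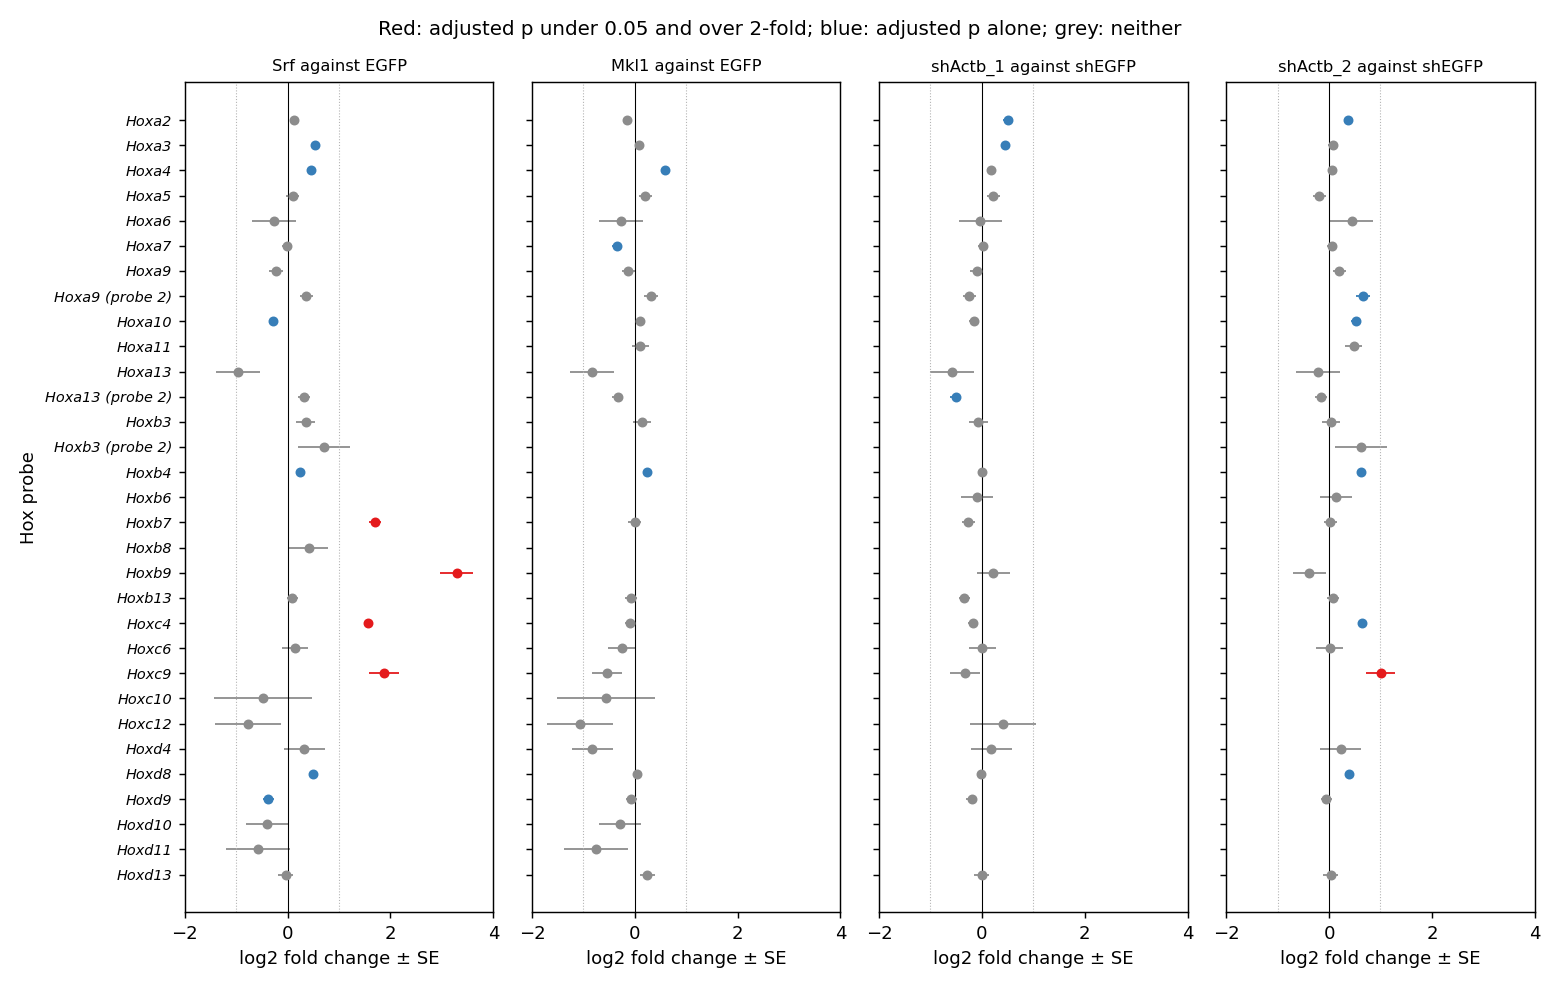
Log2 fold change with its standard error (horizontal axis) for each tested Hox probe of paralog groups 2 to 13 in the comparisons of the arrays labelled Srf and of Mkl1 with EGFP and of each Actb hairpin with shEGFP. Red marks the 4 calls on the arrays labelled Srf and Hoxc9 with shActb_2, blue marks probes past the adjusted p alone, and dotted lines mark 2-fold.

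The controls belong to different experiments, with different vectors and slides, and these cannot be told apart. Over all probes, 10.2% were called between shEGFP and EGFP, and 3 of 29 Hox probes were, a share near that of all probes. The values that follow describe these arrays and are no result about Hox genes as a group. Each of the 3 called probes was tested only through the control in which it was high, so its p is no independent evidence. Hoxb6 read -6.45 and -7.05 on the EGFP arrays, -5.81 and -6.25 with Mkl1, -5.70 and -4.88 on the arrays labelled Srf, -4.67 and -4.94 with shEGFP, -5.01 and -4.80 with shActb_1, and -4.52 and -4.83 with shActb_2. It was well above background on all 6 knockdown arrays and on neither EGFP array, which makes it at least 1.17-fold higher in shEGFP (limma adjusted p = 0.00395). Hoxb9, with the values given above, was higher in shEGFP by 2.35 (SE 0.32, adjusted p = 0.00207). It entered this test only through shEGFP and 1 EGFP array was not above background, so this size too is not exact.

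Hoxd10 and Hoxc10, paralogs that pattern the lumbar spinal cord, went the other way. Hoxd10 stood at -4.72 and -4.08 on the EGFP arrays, -4.26 and -5.12 with Mkl1, -4.98 and -4.62 on the arrays labelled Srf, -6.02 and -5.85 with shEGFP, -5.53 and -5.42 with shActb_1, and -5.33 and -6.40 with shActb_2. It was at least 2.41-fold lower in shEGFP, where it was not above background (adjusted p = 0.0241). Hoxc10 read -3.11 and -3.66 on the EGFP arrays, -4.05 and -3.85 with Mkl1, -3.66 and -4.07 on the arrays labelled Srf, -5.88 and -5.73 with shEGFP, -5.49 and -6.27 with shActb_1, and -3.82 and -7.36 with shActb_2. All 6 overexpression arrays detected it, and of the knockdown arrays only shActb_2 replicate 1 did. Its level in shEGFP was at least 4.73-fold lower than in EGFP, but the adjusted p was 0.0819.

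Of the genes called between the controls, none was detected on all 4 arrays compared. The 3 calls fell to 0 with the normexp correction, where the differences were 0.10 for Hoxb6, 0.83 for Hoxb9 and -0.68 for Hoxd10. The Hoxd10 call was also lost without EGFP replicate 2 (adjusted p = 0.0987), shEGFP replicate 1 (0.106) or shEGFP replicate 2 (0.0776). At the adjusted p alone, Hoxb7 (0.86), Hoxd13 (0.74) and Hoxa4 (0.39) were also higher in shEGFP, and those lower included Hoxa2 (-0.55) and Hoxa3 (-0.40), where 16.9% of all probes were higher and 20.6% lower.

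**Figure D5:**
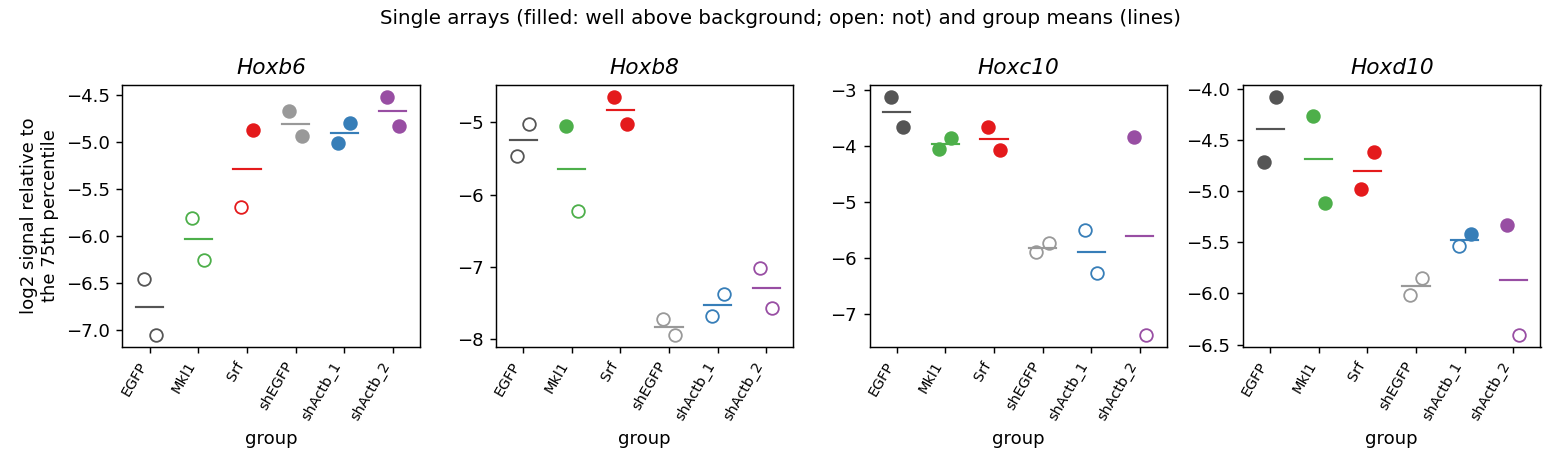
Log2 signal relative to the 75th percentile (vertical axis) of Hoxb6, Hoxb8, Hoxc10 and Hoxd10 on each of the 12 arrays by group, with lines at group means and open circles where the probe was not well above background. Hoxb6 is filled on all knockdown arrays, and Hoxc10 and Hoxd10 are filled on all overexpression arrays.

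Promoter sequences were looked up for the members that moved, in RefSeq sequence of GRCm38.p6 that runs from 250 bases before to 50 bases after the start of the gene. The table held promoters of 22 of the 39 Hox genes (24 promoters, since Hoxa10 and Hoxd11 have a pair each), under the 80% that a check over the whole set would need, so the counts below only describe these 24. Of the 4 genes higher on the arrays labelled Srf, only Hoxc4 was in it. Below are Hoxc4, which was called, Hoxb8, which lies between the called genes Hoxb7 and Hoxb9, and Hoxd10, which differed between the controls. Capitals mark matches to AGGTCA, the core of the retinoic acid receptor site, or to TGATNNAT, the core of a site for Pbx with Hox proteins, on either strand.
Hoxc4 (chr15:103034145-103034444, + strand): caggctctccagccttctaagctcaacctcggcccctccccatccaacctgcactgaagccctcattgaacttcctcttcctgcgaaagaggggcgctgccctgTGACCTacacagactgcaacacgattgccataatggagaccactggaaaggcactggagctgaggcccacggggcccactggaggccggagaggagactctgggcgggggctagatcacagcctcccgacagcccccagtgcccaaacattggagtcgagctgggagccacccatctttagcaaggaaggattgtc
Hoxb8 (chr11:96281655-96281954, + strand): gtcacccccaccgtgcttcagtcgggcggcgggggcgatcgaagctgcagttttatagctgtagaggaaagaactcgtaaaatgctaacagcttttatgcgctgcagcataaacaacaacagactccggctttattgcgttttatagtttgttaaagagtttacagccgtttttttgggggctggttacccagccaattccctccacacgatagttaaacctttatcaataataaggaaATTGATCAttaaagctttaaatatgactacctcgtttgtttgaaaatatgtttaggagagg
Hoxd10 (chr2:74691641-74691940, + strand): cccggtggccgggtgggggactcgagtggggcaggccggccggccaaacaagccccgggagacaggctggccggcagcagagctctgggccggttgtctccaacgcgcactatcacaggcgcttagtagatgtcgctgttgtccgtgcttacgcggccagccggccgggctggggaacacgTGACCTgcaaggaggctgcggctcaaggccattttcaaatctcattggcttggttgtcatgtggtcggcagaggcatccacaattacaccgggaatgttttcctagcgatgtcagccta
The capitals in Hoxc4 and Hoxd10 are AGGTCA on the opposite strand, and those in Hoxb8 are TGATNNAT on the opposite strand. The CArG box, bound by Srf, was found in none of the 24 Hox promoters and in 1.63% of 32841 promoters of this length. AGGTCA was in 7 of the 24 (29.2%), in Hoxa5, Hoxb4, Hoxc4, Hoxd3, Hoxd4, Hoxd8 and Hoxd10, and in 16.3% of all promoters. TGATNNAT was in 4 (16.7%), in Hoxa2, Hoxb1, Hoxb8 and Hoxd11, and in 8.85% of all. Both motifs were searched on both strands, and the matches to different motifs did not overlap in the sequences shown. A match describes letters in a short window and not a bound site, and regulation of Hox genes reaches far beyond such windows.

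All 9 TALE cofactors, the partners of Hox proteins, were on in all groups. Only Meis2 and Pknox2 were called against the controls, each time as lower. Of the 9, 1 was called on the arrays labelled Srf, 2 with Mkl1, 1 with shActb_1 and 1 with shActb_2. Over all probes, 2.25%, 1.49%, 1.12% and 4.58% were called lower in these comparisons. On the arrays labelled Srf, Pknox2 was lower than in EGFP (-1.13, SE 0.20, adjusted p = 0.00514). With Mkl1, Meis2 (-1.66, SE 0.08) and Pknox2 (-1.20, SE 0.20) were lower, with shActb_1 Meis2 (-1.19, SE 0.09), and with shActb_2 Pknox2 (-1.07, SE 0.20). The medians of the 9 were -0.25, -0.41, -0.18 and -0.28 in these comparisons, against -0.04, -0.03, 0.01 and -0.02 over all probes.

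Of the homeobox genes that activate or flank the clusters, Cdx1 was on in all groups and Cdx2, Cdx4, Evx1 and Evx2 were detected on no array. All 27 Polycomb genes and all 10 Trithorax-type genes with a probe were on in all groups. None of them was called on the arrays labelled Srf, with Mkl1 or with shActb_1, where 5.54%, 2.78% and 1.61% of all probes were. With shActb_2, 1 of the 27 Polycomb genes was called lower and 1 higher, near the 6.31% of all probes called. These calls are no result about Polycomb genes as a group. Cbx7, a Polycomb subunit that reads histone methylation, was lower (-3.02, SE 0.31, limma adjusted p = 0.000487). Phf19, a Polycomb-associated protein, was higher (1.37, SE 0.17, adjusted p = 0.000905). Among the noncoding transcripts of the clusters, Hoxa11os, Haglr and Hoxd3os1 were on in all groups and Hottip was detected on no array. Of the 3 tested, Hoxa11os was called lower with shActb_2 (-1.0002, SE 0.15, limma adjusted p = 0.00183), where 4.58% of all probes were. No transcript of this list was called on the arrays labelled Srf, with Mkl1 or with shActb_1.

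Some retinoic acid genes were called. Of 18 with a probe, 16 were on in each control. Of the 16 tested, 1 was called higher and 2 lower on the arrays labelled Srf, where 3.29% and 2.25% of all probes were. Called lower were 2 with Mkl1, 3 with shActb_1 and 2 with shActb_2, and none was called higher. Over all probes, 1.49%, 1.12% and 4.58% were called lower in these comparisons. On the arrays labelled Srf, Aldh1a2, which makes retinoic acid, was higher (1.78, SE 0.24), and Crabp1 (-2.36, SE 0.08) and Crabp2 (-1.65, SE 0.09), which bind it in the cytoplasm, were lower. Rarb, a receptor that retinoic acid itself induces, was lower with Mkl1 (-1.50, SE 0.12), shActb_1 (-2.03, SE 0.12) and shActb_2 (-1.41, SE 0.12), and Cyp26b1, which degrades retinoic acid, was lower with Mkl1 (-1.52, SE 0.28) and shActb_1 (-1.50, SE 0.28). The medians of the 16 genes tested were -0.12 on the arrays labelled Srf, -0.22 with Mkl1, -0.24 with shActb_1 and -0.17 with shActb_2. Those of all probes were -0.04, -0.03, 0.01 and -0.02.

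Markers of brain regions that lack Hox expression in the embryo were on beside the Hox genes. Of 20 forebrain markers, 8 were on in EGFP and 10 in shEGFP, among them Lhx2, Dlx1, Dlx2, Dlx5 and Rax, while Otx1, Emx2 and Nkx2-1 were detected on no array. Of 14 markers of the midbrain and isthmus, 8 and 10 were on, with En1, En2, Pax2, Wnt1 and Fgf8 in both. Hindbrain regulators had 7 of 13 on in each control, with Egr2, Irx2, Irx3 and Irx5 on. These are levels in bulk RNA, so they do not show whether single cells combine the markers, and fewer cells of a kind cannot be told apart from less RNA per cell.

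The regional lists differed in their share of calls. Against EGFP, 3 of 10 tested midbrain and isthmus markers were called higher on the arrays labelled Srf, where 3.29% of all probes were. Of the list, 8 were on in EGFP and 9 on those arrays, so some entered the test through 1 group only. Of 8 tested forebrain markers, 1 was called higher and 1 lower there, where 5.54% of all probes were called. On the arrays labelled Srf, En2 (1.48, SE 0.10) and the forebrain gene Lhx2 (1.06, SE 0.12) were higher than in EGFP, Dlx5 was lower (-1.31, SE 0.07), and Dmbx1 was detected on both arrays and on neither EGFP array. No hindbrain regulator of 8 tested was called there, where 5.54% of all probes were. Dlx5 was lower in the other comparisons too, with differences of -1.61 with Mkl1, -1.38 with shActb_1 and -1.14 with shActb_2 (SE 0.07 in each). With shActb_2, the hindbrain gene Irx3 was higher (1.23, SE 0.27), and Gbx2 was detected on both arrays and on neither shEGFP array. With Mkl1, Irx3 was higher by 1.21 (SE 0.27) and Hesx1 was on where EGFP did not have it. Hindbrain regulators called were 1 of 8 tested with Mkl1 and 2 of 8 with shActb_2, where 2.78% and 6.31% of all probes were. Gbx2, 1 of these 2, entered the test only through shActb_2.

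Along the dorsal to ventral axis, 10 of 16 dorsal markers were on in EGFP and 12 in shEGFP, and 7 and 5 of 13 ventral ones, with Shh and Olig1 detected on no array. The dorsal signal Bmp4 was lower with Mkl1 (-1.46, SE 0.09), shActb_1 (-2.69, SE 0.09) and shActb_2 (-1.01, SE 0.09). It was higher on the arrays labelled Srf by 0.95 (SE 0.09, adjusted p = 0.000312), under 2-fold. Ventral Nkx6-1 was higher on the arrays labelled Srf (2.80, SE 0.10) and Foxa2 lower (-1.18, SE 0.08). Foxa2 was also lower with shActb_1 (-1.15, SE 0.08), and Foxa1 was lower with Mkl1 (-1.43, SE 0.17) and shActb_1 (-1.58, SE 0.17). Ventral markers called were 1 of 7 tested with Mkl1 and 2 of 6 with shActb_1, where 2.78% and 1.61% of all probes were. With shActb_2, 1 of 6 was called, as higher, where 1.73% of all probes were.

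The labelled cell type was checked by its markers. Of 12 NPC markers, 9 were on in EGFP and 10 in shEGFP, among them Sox1, Sox2, Nes, Pax6, Fabp7 and Vim, while Sox3 was detected on no array. Markers of other cell types were on as well. In EGFP and shEGFP these were 7 and 7 of 8 neuron markers, 7 and 8 of 8 glial markers, 13 and 13 of 14 mesenchymal markers, 5 and 6 of 13 mesoderm and limb markers, and 7 and 8 of 10 pluripotency markers.

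On the arrays labelled Srf against EGFP, 1 of 9 tested NPC markers was called, where 5.54% of all probes were. It was Sox2, which was lower (log2 difference -1.05, SE 0.14). Of 7 tested neuron markers, Stmn2 was lower (-3.88, SE 0.15) and Tubb3 higher (1.53, SE 0.11). None of the 8 glial markers was called. The part of these markers in the Hox differences was not tested.

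Mesoderm and limb markers were called on the arrays labelled Srf. Of 7 tested, 4 were higher than in EGFP and none lower, where 3.29% of all probes were called higher. These were Foxc2 (2.49, SE 0.14), Hand2 (1.47, SE 0.12), Meox2 (1.46, SE 0.12) and Meox1, which was detected on both arrays labelled Srf and on no other array. Meox1 thus entered the test only through the group where it was high, so its call is no independent evidence. Of the list, 5 were on in EGFP and 7 on the arrays labelled Srf. The summed signal of the whole list, as log2 relative to the 75th percentile, was 0.98 to 1.02 on those arrays, -0.43 to 0.03 in EGFP, -0.64 to -0.63 with Mkl1, 0.04 to 0.12 in shEGFP, -0.73 to -0.61 with shActb_1 and -0.49 to -0.47 with shActb_2, and Tbx4 and Hand1 were detected on no array. With shActb_2, where Hoxc9 was called higher, 1 of 6 tested mesoderm and limb markers was called, where 6.31% of all probes were. It was Meox2, which was lower (-2.03, SE 0.12). Mesenchymal markers summed to 7.05 to 7.10 on the arrays labelled Srf and 7.75 to 7.79 in EGFP, with Twist2 higher (1.17, SE 0.11) and Col1a2 lower (-1.10, SE 0.10). Pluripotency markers summed to 2.59 to 2.70 against 2.27 to 2.56, with Esrrb higher (2.53, SE 0.12) and Fgf4 on no array. The part of these markers in the Hox differences was not tested.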

How the data were processed

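The authors labelled total RNA with cyanine 3, hybridized it to Agilent mouse arrays and read the scans with Agilent's Feature Extraction (version 11.5.1.1). Per the file headers, its processed intensity of a spot has the background subtracted. These intensities were deposited without scaling between arrays, and the deposited table of log2 values holds the same data shifted by a constant per array. The labels name another array format than the 62976 features fit. Here log2 was taken, control and outlier spots were left out, replicate spots were averaged, and every array was shifted to put its 75th percentile at 0. Probes were named through RefSeq accessions, versions removed (GRCm38.p6 table, names only). 28026 of 55681 probes (50.3%) received a symbol.

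A single limma 3.58.1 model in R 4.3.3 took all 12 arrays, with 1 mean for each group named in the titles. Probes well above background on both arrays of a compared group were tested, two-sided, with Benjamini-Hochberg adjustment over all of them, and called at an adjusted p under 0.05 and over 2-fold. A probe below background on all arrays of a group has a bound ("at least"), set by the lowest signal well above background. Values are printed for Hox genes on in a control or called, and at most 4 called genes per other list and comparison. Some genes are not reported here. The members and lists were chosen with earlier results of these data known. Slide 1 held EGFP, Mkl1 and Srf, slide 2 shEGFP and shActb_1, and slide 3 shActb_2. On slide 1, both EGFP arrays lay in row 2 and the Mkl1 and Srf arrays in row 1. Row and treatment therefore cannot be told apart in the comparisons with EGFP. The fit was tested on simulated data. Alternatives were other background correction (normexp, offset 50, on the median spot signal, since the mean was not among the columns), scaling, filters, arrays and thresholds.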

Additional observations from a re-analysis of the deposited data

Results flagged for a closer look

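Hoxc9 was looked at again because the effects of the Actb hairpins on it differed. It was 1.33 higher on the log2 scale with shActb_2 than with shActb_1 (SE 0.28, limma adjusted p = 0.0112). Over 13 alternatives the difference ranged from 0.59 to 1.79 and its adjusted p from 0.00302 to 0.0715. It was below 2-fold with the normexp correction and without shActb_1 replicate 1, and the adjusted p missed the threshold with the compared arrays alone and without shActb_2 replicate 2. Slide and hairpin cannot be told apart.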

How the results depend on the processing

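The 4 Hox calls of the arrays labelled Srf against EGFP, and the 4 against Mkl1, remained under every alternative run that tested the probe. With each array left out in turn, the counts were 4 to 5 for the arrays labelled Srf against EGFP, 0 to 1 for Mkl1 against EGFP, 0 for shActb_1, 0 to 2 for shActb_2 against shEGFP, 1 to 3 for shActb_2 against shActb_1, 4 to 5 for the arrays labelled Srf against Mkl1 and 2 to 3 between the controls. At the adjusted p alone, the counts were 11 for the arrays labelled Srf against EGFP, 3 for Mkl1, 3 for shActb_1, 8 for shActb_2 against shEGFP, 11 between the hairpins, 10 for the arrays labelled Srf against Mkl1 and 9 between the controls. Over 2-fold alone gave 1 for Mkl1, 2 between the hairpins and 7 between the controls. The normexp correction gave 0 for shActb_2 against shEGFP, 0 between the hairpins and 0 between the controls. The count for shActb_2 against shEGFP was 0 with no filter on dim probes, that between the hairpins 0 with the compared arrays only. Between the controls it was 0 where every array compared had to be above background, since each called probe missed that on some array, 6 with the compared arrays only and 5 with a variance trend and robust estimation. The cause of the other changes was not tested. No Hox difference past the adjusted p changed sign. Quantile normalization, the deposited log2 table and 1 probe per gene kept the other counts within 1.5 times. With the replicate block, counts were 4, 0, 0, 1, 1, 4 and 3, in the order of the first list, as without it. Deviations of same-numbered arrays correlated at -0.007 to 0.24, and the labels name no pairing beyond the number. The slide as a random block was not run, because each group lies on 1 slide. With the laxer flag of a signal significantly above background on both arrays, 33 Hox genes counted as on in each control. A gene near background can be missed at this signal.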
